A study of Rattus norvegicus with 12 samples.

Results

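The proteins of the cytosolic ribosome were examined through the mRNA levels of their genes in rat liver. Members were all gene names on the array that begin with Rpl or Rps followed by a digit, together with Rpsa, Rplp1 and Rplp2, without the ribosomal protein S6 kinases. That rule was applied to names and used no measured value, though it was chosen with earlier results of these data known. It gave 72 names, carried by 107 probes, out of 35737 names on 41012 probes. Of the 72 names, 31 belong to the small subunit and 41 to the large subunit, and all 72 passed the filter on dim probes and were well above background on all 12 arrays. Rplp0, which the rule would also have taken, matched no name. Its older symbol Arbp is on the array, but the rule does not take that name.

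The rats were Sprague-Dawley animals aged 8 to 10 weeks, and every group had been adrenalectomized, so the animals lacked their own adrenal glucocorticoids. Males and females, the females in diestrus 1, received either phosphate-buffered saline as vehicle or dexamethasone, a synthetic glucocorticoid, at 1 mg/kg into the peritoneum, and whole liver was collected 6 h later. The 4 groups (male vehicle, male dexamethasone, female vehicle, female dexamethasone) had 3 arrays each, and every array carried RNA pooled from 3 animals. The p-values therefore measure the spread between pools, and with 3 arrays per group the number of arrays limits precision. Per array, 53.0% to 69.7% of spots were well above background. The hepatocyte genes Alb, Ttr and Apoa1 had mean levels of 9.95, 8.91 and 8.72. All levels are log2 signals after subtraction of the array's 75th percentile, so a level of 0 equals that percentile, and a difference of 1 is a doubling of signal.

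The ribosome is built from ribosomal RNA and a set of proteins that are made in near-equal numbers. The small subunit decodes the mRNA, and the large subunit joins the amino acids. In mammals the mRNAs of these proteins typically start with a run of pyrimidines, the terminal oligopyrimidine tract, through which the mTOR pathway sets their translation. Glucocorticoids change protein synthesis in a tissue-dependent way, with gluconeogenesis and secreted plasma proteins favoured in liver.

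Start windows show what the sequences around the starts of these genes share. RefSeq start sites (build GRCr8) could be matched for 59 of the 72 names. Each window below holds 15 bases before and 15 bases from the annotated start, 5′ to 3′ on the gene's strand. Capitals mark the longest unbroken run of C and T that touches the 10 bases on either side of the start. A run that goes past the window, as in Rpl3l, is shown only in part. Rpl10a, Rps24, Rps10 and Rps9 are shown as examples of names called in both sexes, and Rplp1 and Rps6 for their special roles in elongation and as a kinase target. Rpl3 and its paralog Rpl3l are shown because their differences had opposite signs.
Rpl10a (chr20:6390518-6390547, strand plus): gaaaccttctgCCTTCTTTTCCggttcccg
Rps24 (chr16:96502-96531, strand plus): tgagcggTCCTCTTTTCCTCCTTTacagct
Rps10 (chr20:5700730-5700759, strand minus): gccgcgcacgCCCCTTCCTTTCCagcctcc
Rps9 (chr1:74430423-74430452, strand minus): tccggcggccacgTTTCTCTTTgtcacggg
Rplp1 (chr8:71290858-71290887, strand minus): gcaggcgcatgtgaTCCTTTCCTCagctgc
Rps6 (chr5:106420526-106420555, strand minus): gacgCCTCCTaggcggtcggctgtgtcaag
Rpl3 (chr7:113507976-113508005, strand minus): ccagcgcctgctcgaTCTCTatcggcggcg
Rpl3l (chr10:14258431-14258460, strand plus): gacctctggtgcctggtggggaggTCCCTT

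A run of at least 8 C or T bases that touched the 10 bases on either side of the start was present in 42 of 59 names (71.2%), against 3615 of 27457 starts of all genes (13.2%). Some of these runs ended before the annotated start, among them those of Rpl7a, Rpl21 and Rps3, and so lie outside the annotated transcript. The first transcribed base was C in 32 of 59 (54.2%) and in 24.2% of all starts. In the promoter window of 250 bases before to 50 bases after the start, the full glucocorticoid response element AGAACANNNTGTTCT, which reads the same on both strands, was in 0 of 59 names and in 2 of 27457 windows. Its left part AGAACA, searched on both strands and contained in the full element, was in 11 of 59 names (18.6%) and in 20.1% of all windows. These counts describe letters in a window and not binding.

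Each probe is a 60-base oligonucleotide, and its sequence decides which transcripts it can read. For 7 of the 72 names, among them Rpl17, Rpl21, Rps12, Rps15a, Rps24 and Rps25, a probe of another name shared at least 50 bases. Ribosomal proteins have many near-identical copies in mammalian genomes, so signal from such a copy can reach these probes, and their values are uncertain in that respect. The Rps12 pair is printed as an example, 5′ to 3′, with the 6 bases that differ in capitals.
Rps12 probe: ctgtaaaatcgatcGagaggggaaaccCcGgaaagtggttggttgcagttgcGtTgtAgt
RGD1562265 probe: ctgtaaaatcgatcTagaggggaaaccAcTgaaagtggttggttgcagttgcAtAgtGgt
The differences of this pair between dexamethasone and vehicle were close, 0.58 for Rps12 and 0.71 for RGD1562265 in males and -0.18 and -0.13 in females. The Rps24 pair was less alike: Rps24 differed by 0.56 in males and its near copy RGD1564325 by 1.44. Where a ribosomal protein had several tested probes (25 names), the signs of all its probes were the same in males for 25 of 25 names and in females for 21 of 25. The median gap between the probes of a name was 0.08 in males and 0.15 in females.

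Nearly all ribosomal protein genes stood a little higher after dexamethasone in males, and the median shift was smaller in females, a gap that passed the test for no single name. The size of that gap depended on the normalization, and it was smaller under median normalization. The median difference between dexamethasone and vehicle was 0.45 (log2) in males, with 70 of 72 names above 0, and 0.23 in females, with 64 of 72 above 0. Over all 24312 names tested, the median was 0.01 in males and -0.07 in females, and 50.5% and 45.7% of names were above 0. The differences lay close together: the interquartile range ran from 0.35 to 0.52 in males and from 0.11 to 0.46 in females, where all names spread from -0.41 to 0.39 and from -0.60 to 0.39. By limma with Benjamini-Hochberg adjustment over all names, 14 of 72 (19.4%) passed at an adjusted p under 0.05 in males, 13 higher and 1 lower, beside 20.1% of all names. In females 13 of 72 (18.1%) passed, 12 higher and 1 lower, beside 24.3% of all names. The share of ribosomal protein names that passed in either direction was thus near or below the background in both sexes. Counting rises alone, 13 of 72 passed in males and 12 of 72 in females, beside 9.24% and 11.8% of all names. Counting falls alone, 1 of 72 passed in each sex, beside 10.9% and 12.6%.

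By array, the median deviation of the 72 names from their own means over 12 arrays was -0.41, -0.28 and -0.07 in male vehicle replicates 1 to 3 and -0.03, 0.13 and 0.47 in the male dexamethasone replicates. It was -0.24, -0.20 and 0.19 after vehicle and 0.14, 0.11 and 0.29 after dexamethasone in females. The male groups did not overlap. The female groups did, through vehicle replicate 3. The groups of single names did not overlap for 39 of 72 names in males, beside 35.2% of all names, and for 26 of 72 in females, beside 43.1%.

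**Figure D1:**
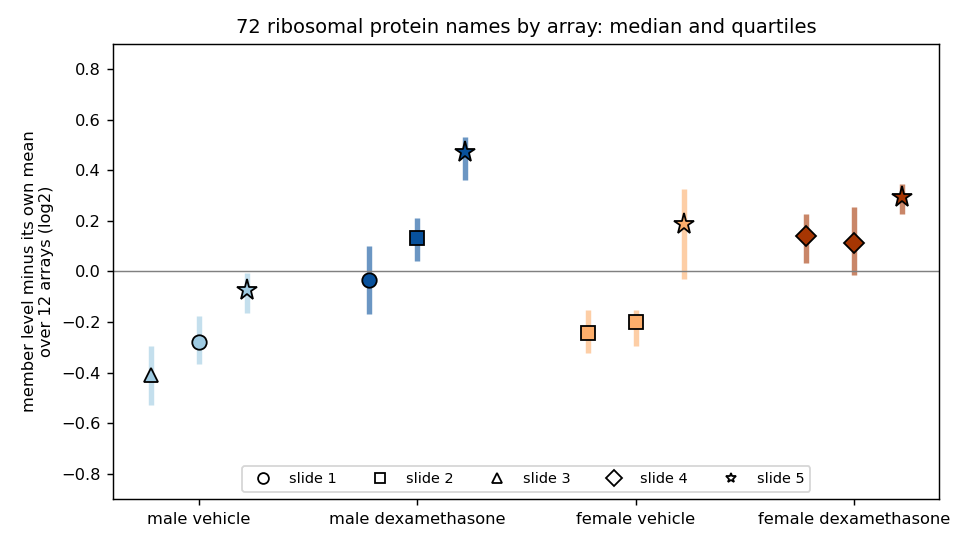
Median (symbol) and quartiles (bar) over the 72 ribosomal protein names of the level on an array minus the name's mean over 12 arrays, on a log2 axis, for the 3 arrays of each group, with symbols by slide. The star, slide 5, is the highest symbol in every group, from -0.07 in male vehicle to 0.47 in male dexamethasone.

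The array slide moved with these levels. Arrays were printed on 5 slides, read from the array barcodes, and slide 5 held replicate 3 of all 4 groups. Slide 4 held only female dexamethasone replicates 1 and 2, and slide 3 only male vehicle replicate 1. Slide 2 held female vehicle replicates 1 and 2 with male dexamethasone replicate 2. The slide 5 array was the highest of its group for 57 of 72 names in male vehicle, 64 in male dexamethasone, 62 in female vehicle and 57 in female dexamethasone. Within slide 5 alone, the median difference of the 72 names was 0.54 in males (70 above 0) and 0.07 in females (41 above 0). Within slide 1, which held male vehicle replicate 2 and male dexamethasone replicate 1, it was 0.26, with 71 of 72 above 0. With slide as a fixed block in the fit, the median was 0.41 in males and 0.11 in females, and 19 names passed in males, all higher, and 1 in females, also higher. Over all 24312 names, 6235 passed in males in that fit and 3081 in females. Slide 4 added nothing to the female difference there, since it held no other group. The female dexamethasone level then rested on the slide 5 array. The fewer female names that passed cannot be told apart from this layout. Without slide 5, where the female groups share no slide, the medians were 0.41 in males and 0.34 in females. Other bright genes moved the same way in part: 1153 further names in the top 5% by mean signal had a median difference of 0.14 in males and 0.07 in females. Scaled on those names instead, the median of the ribosomal protein names was 0.35 in males and 0.10 in females, while the median over all names moved to -0.10 and -0.20.

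The counts of names that passed depended on single arrays. Without male dexamethasone replicate 3, or without male vehicle replicate 1, 2 names passed in males. Without male dexamethasone replicate 2 it was 5, without male vehicle replicate 2 it was 7, and 9 passed without male vehicle replicate 3 or without female dexamethasone replicate 1 or 2. In females 5 names passed without vehicle replicate 1, vehicle replicate 2 or dexamethasone replicate 2, 6 without dexamethasone replicate 1 or 3, and 8 without male dexamethasone replicate 2. Rpl10a passed under all 12 omissions in both sexes. In females Rpl3, Rpl21 and Rpl3l also passed under all 12. Where 1 omission is named beside a call that ended, it is the omission with the highest adjusted p, and others could end the call too.

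Rpl10a, a protein of the mobile L1 stalk of the large subunit, rose in both sexes. Its levels were 4.53, 4.86 and 4.58 after vehicle and 5.52, 5.47 and 5.56 after dexamethasone in males. In females they were 4.61, 4.74 and 4.64 after vehicle and 5.47, 5.58 and 5.40 after dexamethasone. Neither sex had any overlap, and slide 5 was not the highest array in 3 of the 4 groups. The difference was 0.86 ± 0.14 (SE, 1.81-fold, adjusted p = 0.00183) in males and 0.82 ± 0.14 (1.77-fold, adjusted p = 0.00217) in females by limma. With slide as a block it was 0.81 (adjusted p = 0.00956) and 0.75 (adjusted p = 0.0528).

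**Figure D2:**
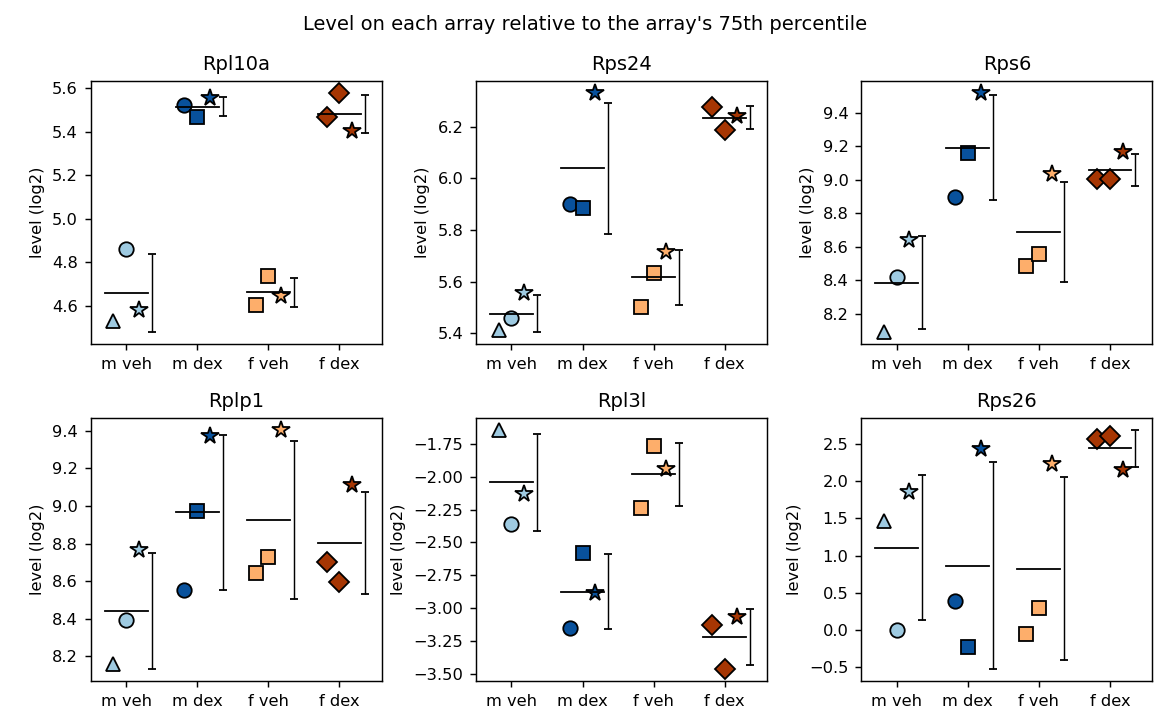
Levels of 6 names on each of the 12 arrays (symbols by slide as in the plot of array medians, star for slide 5), relative to the array's 75th percentile on a log2 axis, with the group mean (line) and ± 1 SD (bar, n = 3). Rpl10a, Rps24 and Rpl3l separate dexamethasone from vehicle in both sexes, whereas Rplp1 overlaps and Rps26 separates by slide.

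In the small subunit, 9 of 31 names rose in males and 7 of 31 in females, beside 9.24% and 11.8% of all names, and none fell. Rps24, a protein whose gene is mutated in Diamond-Blackfan anaemia, had levels of 5.41, 5.46 and 5.56 after vehicle and 5.90, 5.88 and 6.33 after dexamethasone in males. In females its levels were 5.50, 5.63 and 5.71 after vehicle and 6.28, 6.19 and 6.24 after dexamethasone. It rose by 0.56 ± 0.16 in males (adjusted p = 0.0278) and by 0.62 ± 0.16 in females (adjusted p = 0.0165), with no overlap in either sex. The call ended without male dexamethasone replicate 3 (adjusted p = 0.0932) in males and without female vehicle replicate 1 (adjusted p = 0.0628) in females. Rps9, which influences the accuracy of decoding, rose by 0.61 ± 0.17 in males (adjusted p = 0.0270) and 0.63 ± 0.17 in females (adjusted p = 0.0223). Rps3, which sits at the mRNA entry and also takes part in DNA repair, rose by 0.53 ± 0.17 (adjusted p = 0.0490) and 0.57 ± 0.17 (adjusted p = 0.0325). The calls of Rps9 and Rps3 ended without male dexamethasone replicate 3 in males (adjusted p = 0.0960 and 0.157) and without female vehicle replicate 2 in females (adjusted p = 0.0815 and 0.104). Of the 12 omissions of 1 array, 9 kept the call of Rps9 in males and 8 in females, and 2 and 8 kept that of Rps3. Rps10 and Rps3a passed in both sexes too, at 0.56 and 0.46 in males and 0.52 and 0.38 in females. The call of Rps10 was kept under 3 of 12 omissions in each sex, and that of Rps3a under 8 in males and 0 in females, with adjusted p up to 0.133.

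Rps6, the ribosomal protein phosphorylated by S6 kinases, had levels of 8.09, 8.42 and 8.64 after vehicle and 8.90, 9.16 and 9.52 after dexamethasone in males. In females the levels were 8.48, 8.56 and 9.03 after vehicle and 9.00, 9.01 and 9.17 after dexamethasone. The male groups were apart, while female vehicle replicate 3 reached the dexamethasone values. Rps6 rose by 0.81 ± 0.22 in males (1.75-fold, adjusted p = 0.0260 by limma), and the difference in females was 0.37 ± 0.22 (adjusted p = 0.254). Without male dexamethasone replicate 3 its adjusted p in males was 0.0949. The interaction of sex and treatment was -0.44 for Rps6 (adjusted p = 0.635), so a difference between the sexes was not shown. Rps19 passed in males (0.50, adjusted p = 0.0231) and had a difference of 0.10 in females, and its male call was kept under 7 of 12 omissions (adjusted p = 0.0756 without male dexamethasone replicate 2). Of the other small-subunit names described by role, Rpsa, which is also the laminin receptor, had differences of 0.36 in males and 0.44 in females. Rps27a, made as a fusion with ubiquitin, had differences of 0.35 and 0.46, and Rps4x, the X-linked copy of S4, of 0.09 and 0.38. None of these 3 passed in either sex.

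In the large subunit, 4 of 41 names rose and 1 fell in males, and 5 rose and 1 fell in females. The shares that rose were near those of all names, 9.24% and 11.8%. In males Rpl6 (0.70 ± 0.21, adjusted p = 0.0409) and Rpl8 (0.68 ± 0.20, adjusted p = 0.0368) rose beside Rpl10a. Both calls ended without male dexamethasone replicate 3 (adjusted p = 0.128 and 0.126), and they were kept under 3 and 4 of 12 omissions. Rpl37a rose by 0.89 ± 0.21 in males (adjusted p = 0.0134), from levels of -2.32, -2.0 and -2.17 to -1.60, -1.03 and -1.20. Its level in females was -2.14, -1.74 and -2.22 after vehicle and -1.99, -2.0 and -1.57 after dexamethasone, which overlap. The Rpl37a call ended without male dexamethasone replicate 2 (adjusted p = 0.0534), and its probe carries the accession of a predicted transcript, so which copy it reads is uncertain.

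In females Rpl3, a core protein near the peptidyl transferase centre, rose. Its levels were 4.21, 4.13 and 4.07 after vehicle and 4.83, 4.89 and 5.04 after dexamethasone, and in males 4.22, 4.35 and 4.27 after vehicle and 4.84, 4.43 and 4.58 after dexamethasone. Both sexes lacked overlap. The difference was 0.78 ± 0.15 in females (1.72-fold, adjusted p = 0.00379) and 0.34 ± 0.15 in males (adjusted p = 0.146) by limma. Rpl3 was the only name that passed in females with slide as a block (0.88, adjusted p = 0.0347). Rpl21 (0.64 ± 0.14, adjusted p = 0.00778) and Rpl5 (0.61 ± 0.16, adjusted p = 0.0214) rose in females as well. Rpl15 passed at 0.47, a call kept under 5 of 12 omissions (adjusted p = 0.119 without female dexamethasone replicate 2). Rpl5 forms with Rpl11 and 5S RNA the particle that binds Mdm2. The call of Rpl5 ended without female vehicle replicate 2 (adjusted p = 0.0728), and its difference was 0.38 with slide as a block. Rpl11 had differences of 0.39 in males and 0.11 in females and did not pass.

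Rpl3l, the paralog that takes the place of Rpl3 in skeletal and heart muscle, fell in both sexes. Its levels were -1.64, -2.36 and -2.13 after vehicle and -3.15, -2.58 and -2.88 after dexamethasone in males. In females they were -2.24, -1.77 and -1.94 after vehicle and -3.13, -3.46 and -3.07 after dexamethasone. No array of a dexamethasone group reached its vehicle group. Rpl3l fell by 0.83 ± 0.23 in males (1.78-fold lower, adjusted p = 0.0299) and by 1.24 ± 0.23 in females (2.35-fold lower, adjusted p = 0.00379) by limma. The male call ended without male dexamethasone replicate 1 (adjusted p = 0.102), and with slide as a block the adjusted p was 0.0524 in males and 0.0703 in females. Rpl3l was the only ribosomal protein name below 0 in both sexes. Its mean level, -2.53, was the lowest of the 72 names. Its probe is assigned to a predicted transcript, as that of Rpl37a is, so which transcript it reads is uncertain.

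The acidic stalk proteins recruit elongation factors to the large subunit, and the 2 taken by the rule, Rplp1 and Rplp2, were among the names without a clear shift in females. Rplp1 had levels of 8.16, 8.39 and 8.77 after vehicle and 8.55, 8.97 and 9.37 after dexamethasone in males. In females the levels were 8.64, 8.73 and 9.41 after vehicle and 8.70, 8.60 and 9.11 after dexamethasone. Both sexes overlapped, and slide 5 was the highest array of each group. The difference was 0.53 ± 0.28 in males (adjusted p = 0.240) and -0.12 ± 0.28 in females (adjusted p = 0.787). Rplp2 had a difference of 0.49 (adjusted p = 0.0870) in males and -0.01 in females. Of 3 further names often used as reference genes or known for roles outside the ribosome, Rpl13a had differences of 0.44 in males and 0.03 in females, Rpl10 of 0.27 and 0.10, and Rpl32 of 0.63 and 0.24. None passed, and Rpl32 came nearest, with an adjusted p of 0.0503 in males.

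The levels of Rps26, a small-subunit protein near the mRNA exit, separated by slide. This name was singled out after its values were seen. Its levels were 1.47, -0.01 and 1.85 in male vehicle, 0.38, -0.23 and 2.43 in male dexamethasone, -0.06, 0.30 and 2.23 in female vehicle and 2.57, 2.61 and 2.16 in female dexamethasone. All 5 arrays of slides 1 and 2 lay between -0.23 and 0.38, and all 7 arrays of slides 3, 4 and 5 between 1.47 and 2.61. This split of slides was also made after the values were seen. Slide 4 held only female dexamethasone arrays and slide 3 only a male vehicle array, so on these slides slide and group cannot be told apart. The female difference of 1.62 ± 0.77 (adjusted p = 0.151) became -0.23 when slide entered the fit and -0.07 inside slide 5. The male difference of -0.24 became 0.41 with the block and 0.58 within slide 5.

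The remaining names did not pass in either sex. Over all names that did not pass, differences ran from -0.24 (Rps26) to 0.63 (Rpl32) in males, with a median of 0.43 and 57 of 58 above 0. In females they ran from -0.18 (Rps12) to 1.62 (Rps26), with a median of 0.20 and 52 of 59 above 0. The 9 names that passed in both sexes, among them Rpl10a, Rpl3l, Rps10, Rps24, Rps3, Rps3a and Rps9, all had the same sign in both. They were 64.3% of those that passed in males and 69.2% of those in females. The like share over all names was not computed, so this overlap is not a trait shown to be particular to ribosomal proteins.

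**Figure D3:**
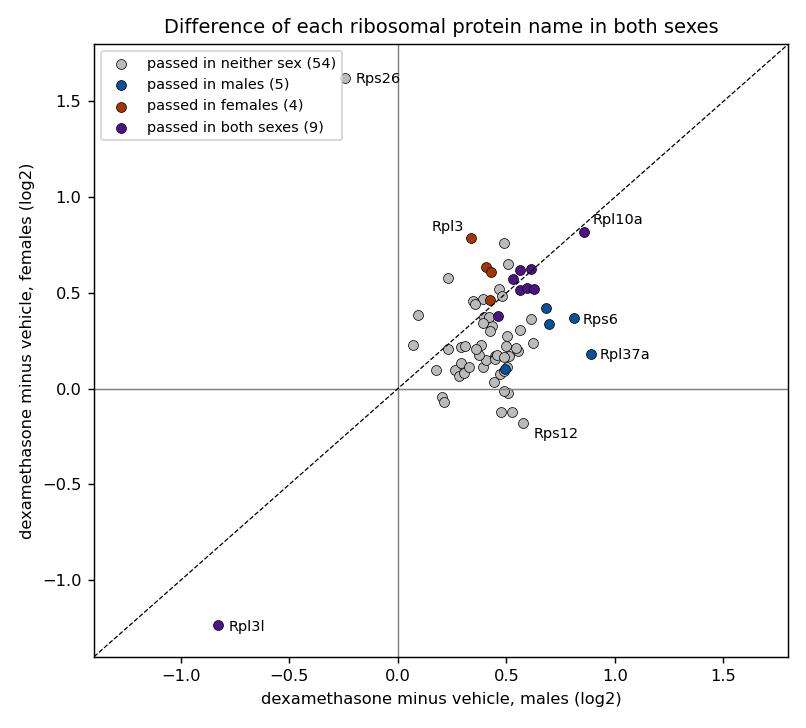
Difference between dexamethasone and vehicle (log2) in males on the horizontal axis and in females on the vertical axis for each of the 72 names, coloured by whether it passed at an adjusted p under 0.05 (limma); the dashed line marks equal differences. Most points lie right of 0 and below the dashed line, with Rpl3l at the lower left (-0.83, -1.24) and Rps26 apart at the top.

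No ribosomal protein gene was shown to respond differently in the sexes. The difference between the female and the male effect passed for 0 of 72 names by limma, beside 0.0288% of all names (7 of 24312), and 2 names, Rpl37a (-0.71) and Rps12 (-0.76), had an unadjusted p under 0.05 (0.0383 and 0.0342, adjusted p = 0.482 and 0.472), beside 9.94% of all names. The median interaction was -0.18, and 54 of 72 were below 0 (45.9% of all names were above 0). It was -0.28 when slide entered the fit, -0.41 inside slide 5 and -0.05 without slide 5. Under median normalization the gap between the sexes was smaller than in the main fit. Rps12, singled out after its values were seen, had levels of 7.0, 7.35 and 7.48 in male vehicle, 7.51, 7.93 and 8.12 in male dexamethasone, 7.80, 7.81 and 8.23 in female vehicle and 7.65, 7.64 and 8.02 in female dexamethasone. These are the levels of the brighter of 2 Rps12 probes. On that probe all 3 male vehicle arrays lay below all female vehicle arrays, while on the dimmer probe these groups overlapped (6.88, 7.09 and 7.45 against 7.18, 7.23 and 7.79) and the interaction was -0.42.

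No ribosomal protein gene passed between the sexes within a treatment. After vehicle 0 of 72 names passed by limma, beside 1.7% of all names, and 1 name (Rps12, 0.67) had an unadjusted p under 0.05, as did 10% of all names. The median difference, female minus male, was 0.16, with 61 of 72 names above 0, beside 54.3% of all names. After dexamethasone 0 of 72 passed, beside 2.28% of all names, and 1 name (Rpl37a, -0.58) had an unadjusted p under 0.05, as did 15.5% of all names. The median was then -0.02, with 31 above 0 and 41 below, beside 47.2% of all names above 0. Within slide 5 these medians were 0.28 and -0.16.

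Many genes that build ribosomes rose in both sexes. Of 56 ribosome biogenesis genes, which process ribosomal RNA and assemble subunits in the nucleolus, 38 rose in males and 34 in females and none fell, with medians of 0.89 and 0.82, beside 9.24% and 11.8% of all names that rose. Within slide 5 the medians were 1.14 and 0.58. Nolc1, a nucleolar chaperone, had levels of 3.18, 3.07 and 3.12 after vehicle and 4.92, 4.97 and 5.53 after dexamethasone in males. In females they were 2.66, 2.74 and 3.67 after vehicle and 4.57, 4.86 and 4.60 after dexamethasone. These groups were far apart in both sexes, and Nolc1 rose by 2.02 and 1.65. Heatr1, needed for transcription of ribosomal DNA, rose by 1.93 and 2.25. Mphosph10 and Nol5a, components of the complexes that cut and modify ribosomal RNA, rose by 2.09 and 2.04 in males and by 1.62 and 1.05 in females. Bop1, of the large-subunit assembly complex, rose by 1.53 and 1.83, and Wdr46 by 1.21 and 1.87. The calls of Wdr46 in males and of Nol5a in females ended without male vehicle replicate 3 (adjusted p = 0.0970) and without female dexamethasone replicate 2 (adjusted p = 0.0511), and Nol5a in females was 0.61 with slide as a block. Myc, which drives many of these genes, had differences of 1.15 in males (adjusted p = 0.0830) and 0.92 in females (adjusted p = 0.142).

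Among 34 translation initiation factors, 11 rose in males and 16 in females and none fell, with medians of 0.41 and 0.50. These were 32.4% and 47.1%, beside 9.24% and 11.8% of all names that rose. Eif4a1, the helicase that unwinds mRNA leaders, rose by 1.55 in males and 1.02 in females (0.61 with slide as a block, adjusted p = 0.163). Eif4e, the cap-binding protein, rose by 1.10 and 1.07, and Eif2b3, a subunit of the exchange factor for Eif2, by 1.83 and 1.62. The Eif3 subunits Eif3s7 and Eif3s9 rose by 0.98 and 0.94 in males and by 0.77 and 1.26 in females, where the Eif3s7 call ended without female vehicle replicate 2 (adjusted p = 0.0817). Eif2s1 rose in females (1.42), a call that ended without female dexamethasone replicate 2 (adjusted p = 0.0564). Of 11 elongation and release factors, 2 rose in males and 2 rose and 1 fell in females. The shares called in either direction, 18.2% and 27.3%, were near the 20.1% and 24.3% of all names. Eef1a1, which brings tRNA to the ribosome, had differences of -0.25 and 0.29, and Eef2, the translocase, of -0.08 and 0.30, and neither passed. Etf1, the release factor, rose by 0.48 and 0.54, Eef1d by 0.63 in males, and the ribosome recycling factor Abce1 by 1.22 in females, while the rescue factor Pelo fell by 0.84 in females. The Etf1 and Eef1d calls in males ended without male dexamethasone replicate 3 (adjusted p = 0.0916 and 0.0969), the Etf1 call in females ended without female vehicle replicate 2 (adjusted p = 0.0598), and Abce1 in females was 0.49 with slide as a block.

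Of 10 further genes that are ribosome-associated or carry pyrimidine starts, 4 rose in males and 3 in females. These were 40% and 30%, beside 9.24% and 11.8% of all names that rose. Gnb2l1, the ribosomal scaffold protein Rack1, rose by 0.46 and 0.67, Naca by 0.48 and 0.51, and Serbp1, which binds idle ribosomes, by 0.84 and 1.12. Npm1 rose by 0.74 in males. The calls of Gnb2l1 and Naca in males ended without male vehicle replicate 1 (adjusted p = 0.136) and without male vehicle replicate 3 (adjusted p = 0.0871), and that of Naca in females without female dexamethasone replicate 2 (adjusted p = 0.0734). Mitochondrial ribosomal proteins, encoded in the nucleus for a separate ribosome, had medians of 0.19 in males and 0.33 in females. Of 61 genes, 7 rose and 1 fell in males and 14 rose and 2 fell in females. The share called in either direction was below that of all names in males (13.1% beside 20.1%) and near it in females (26.2% beside 24.3%). Mrps31 (2.42 and 1.98), Mrps7 (1.29 and 1.40) and Mrpl47 (1.27 and 1.15) rose in both sexes, Mrpl41 rose in males (1.07), and Mrpl14 fell in females (by 1.16, a call that ended without female dexamethasone replicate 2, adjusted p = 0.145).

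Genes of the mTOR pathway, which controls translation of these mRNAs, differed in both directions. Of 24 genes, 3 rose and 1 fell in males and 3 rose and 3 fell in females, or 16.7% and 25% called in either direction beside 20.1% and 24.3% of all names. The medians were -0.01 and 0.06, with 12 and 14 genes above 0 and quartiles of -0.46 and 0.38 in males and -0.17 and 0.60 in females. Klf15, a glucocorticoid-induced factor that restrains mTOR in muscle, had levels of 4.06, 3.67 and 4.30 after vehicle and 5.31, 5.42 and 5.88 after dexamethasone in males. It rose by 1.52 in males (adjusted p = 0.00121), and its difference in females was 0.58 (adjusted p = 0.0966). Ddit4, an inhibitor of mTOR, rose by 2.28 in females (adjusted p = 0.0142) and had a difference of 1.08 in males (adjusted p = 0.221). Sesn1, another inhibitor, rose by 1.70 and 2.16, and its call in males ended without male dexamethasone replicate 1 (adjusted p = 0.103). Larp1, which binds pyrimidine starts, rose by 0.71 and 0.82, its call in males ending without male vehicle replicate 3 (adjusted p = 0.0570). Ddit4l was not well above background on any dexamethasone array, and in females on 2 of 3 vehicle arrays only. It was at least 2.32-fold lower in males and at least 2.44-fold lower in females, a bound set with the dimmest measured probe of each array. The limma fit called it lower in both sexes (adjusted p = 0.000501 and 7.49e-05). Those p-values belong to the measured values, which include signals not well above background, and do not test the bound. Rragd fell by 2.67 in females, with 2 of 3 dexamethasone arrays above background, and its call ended without female vehicle replicate 3 (adjusted p = 0.0629). Eif4ebp1, the repressor of Eif4e, had differences of 0.59 in males and 0.06 in females and passed in neither. With slide as a block, the female dexamethasone level rests on the slide 5 array, so female calls lost there cannot be told apart from the layout of slides. Of all the genes named from these lists, 10 lost their call in females with slide as a block (Abce1, Eif3s7, Eif4a1, Eif4e, Etf1, Gnb2l1, Mrps7, Naca, Nol5a and Nolc1, adjusted p from 0.0516 to 0.301), and Gnb2l1 lost it in males (adjusted p = 0.0861).

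**Figure D4:**
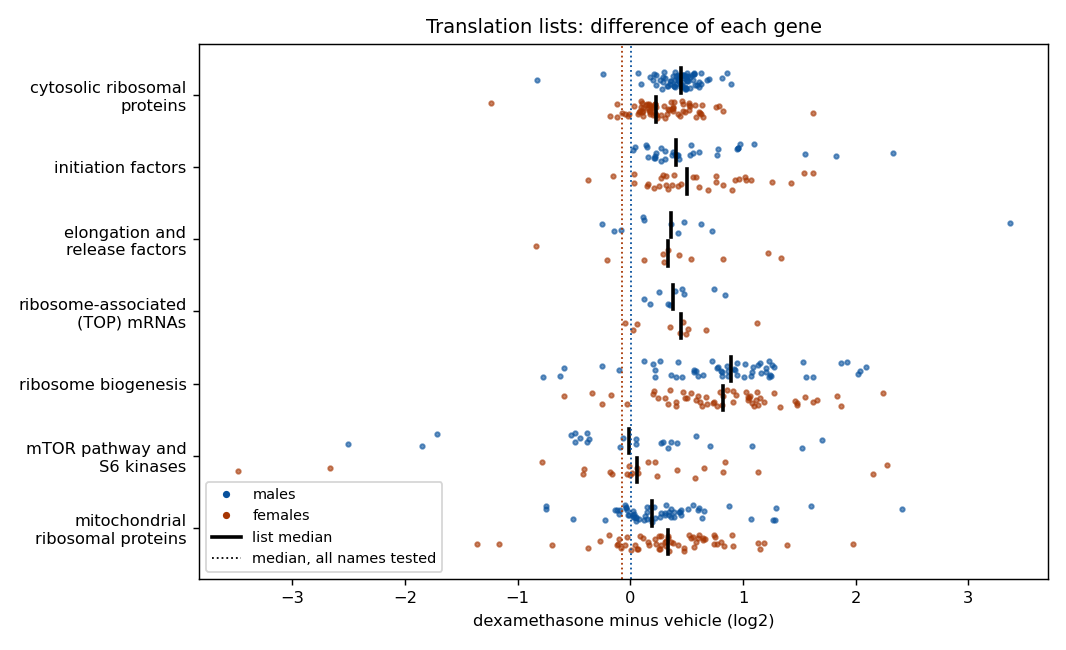
Difference between dexamethasone and vehicle (log2, horizontal) of each gene of the 7 translation lists (rows) in males and females, with list medians as black bars and the medians of all names tested as dotted lines at 0.01 and -0.07. The 72 cytosolic ribosomal proteins lie in a narrow band around 0.45 in males and 0.23 in females, and ribosome biogenesis lies farthest right, at 0.89 and 0.82.

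Markers of some other cells moved with treatment. Hepatocyte markers did not pass in males (0 of 13), and in females 1 rose and 1 fell. Of 12 T and NK cell markers, 6 fell and 1 rose in males and 9 fell in females, beside 10.9% and 12.6% of all names that fell, with a list median per array (relative to each gene's mean) of 0.21 to 0.61 in male vehicle, -0.58 to -0.30 in male dexamethasone, 0.44 to 0.79 in female vehicle and -0.63 to -0.41 in female dexamethasone. Of 11 Kupffer cell and macrophage markers 2 fell in each sex, of 4 B cell markers 2 and 3, and of 3 neutrophil markers 2 and 2. Of 7 endothelial markers 0 fell in males and 1 in females, of 5 bile duct markers 1 and 1, and of 4 erythroid markers 0 and 0. Of 9 stellate cell and fibroblast markers 2 fell in males and 3 in females, with median differences of 0.09 and -0.55, and within slide 5 of 0.08 and -0.95. Their interaction, female minus male, was below 0 for 9 of 9, as it was for most ribosomal protein names, with 4 at an unadjusted p under 0.05 and 0 passing after adjustment by limma. The list median per array was -0.04 to 0.20 in male vehicle, -0.01 to 0.21 in male dexamethasone, 0.15 to 0.38 in female vehicle and -0.47 to -0.15 in female dexamethasone. In whole liver, fewer cells of a type and less RNA per cell cannot be told apart, and the part of these markers in the ribosomal protein values was not tested.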

How the data were processed

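RNA from 12 pools of rat liver was hybridized to single-colour Agilent whole-genome arrays, 500 ng per array with the dye Cy3, per the labels' protocols. The authors deposited scanner files with spot intensity made by Agilent Feature Extraction 9.1, per the submitters' processing notes, and a value table of log10 intensity, per the values of the file, whose scaling the labels do not state. Flags for outliers and for signal above background are a further deposited score of 0 or 1 per spot. The background-subtracted intensity was put on a log2 scale and centred on each array's 75th percentile, taken over spots that are not controls. Of all spots, 211 were flagged and left out, and none was saturated. A probe was kept if 3 or more of the 12 arrays showed it well above background and every group had 2 or more usable arrays, and the brightest probe stood for a gene name, which left 24312 names. Values were missing in 1 array for each of 3 members, Rpl7 and Rps20 among them, and the fit used the remaining arrays. Group means were compared with limma 3.58.1 in R 4.3.3, with one variance over all 4 groups and Benjamini-Hochberg adjustment over all names. The fit was tested on simulated data, drawn independently for each name and array and without slide effects. That test therefore does not cover slides or names that move together.

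The members, the gene lists and the rule for named genes were chosen with earlier results of these data known. That rule names ribosomal proteins of special role (Rplp1, Rplp2, Rpsa, Rps6, Rps27a, Rpl10, Rpl13a, Rpl32, Rps3, Rpl5, Rpl11) and paralogs in any case, up to 12 called members per contrast or the 6 largest in each direction, and up to 4 called genes per translation list, with Klf15, Ddit4, Eif4ebp1, Myc, Eef1a1 and Eef2. Some further names are given and Rps26 and Rps12 were chosen after their values were seen. By accession, 62 of 72 names matched a current RefSeq symbol (build GRCr8), 60 of them the same one; the probes named Rpl36a and Rpl37 matched Rpl36al1 and Rpl37l1. Promoter windows come from RefSeq. Signal of different probes depends on the probe and was not compared between genes. Slides were read from the array barcodes. Replicate numbers were not used as a pairing. The values of some members are not reported here.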

Additional observations from a re-analysis of the deposited data

How the results depend on the processing

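The median difference of the 72 names kept its sign in males (0.28 to 0.54, and 0.26 within slide 1) and in females (0.07 to 0.43) under every alternative in which it was computed, 15 apart from slide 1 and omissions of single arrays. In females it was 0.43 under median normalization, where the median over all names moved from -0.07 to 0.13 and 3802 names passed higher and 2031 lower, against 2861 and 3057. Scaled on the other bright names, an alternative chosen after seeing the data, 1971 passed higher and 3577 lower in females. The interaction median was -0.41 within slide 5. Counts of names that passed moved more. In males, against 14, they were 3 under median normalization, 22 with normexp background correction, 2 without a filter on dim probes, 8 in the authors' deposited value table, 44 with slide as a random block, 3 without slide 5 and 2 when only the compared groups were fitted. In females, against 13, they were 5 without the filter, 1 with slide as a fixed block, 7 on the other bright names and 7 with only the compared groups. With the replicate number as a block the counts were 37 in males, 20 in females and 1 between the sexes after vehicle. Over all names, that block gave 6337 in males and 7722 in females, against 4886 and 5918. Normexp background correction gave 4080 in males over all names. Deviations of same-numbered arrays correlated above 0.1 in all 6 pairs for number 3, which is slide 5 (0.18 to 0.59), but in 2 and 3 of 6 pairs for numbers 1 and 2. Pairs with different numbers went both ways, such as male vehicle replicate 1 with male dexamethasone replicate 2 (0.38) and with replicate 3 (-0.30). A pairing by number was therefore not shown, and for number 3 it cannot be told apart from the slide.

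Leaving out single arrays gave male counts of 2 to 15 and female counts of 5 to 15, and male medians of 0.32 to 0.56 and female medians of 0.16 to 0.38. The interaction median ran from -0.33 to -0.02, the sex difference after vehicle from 0.05 to 0.23 and that after dexamethasone from -0.13 to 0.10, so its sign is not settled. No name passed in these 3 contrasts under any omission (0 in each). Over all names, the female count was 3081 with slide as a fixed block against 5918, and the male count 7752 with slide as a random block against 4886. The sex difference after vehicle, 414, was 252 with the fixed block, 650 with the random block, 261 without slide 5 and 159 with only the compared groups, and that after dexamethasone, 555, was 916 with the random block, 846 with the replicate block and 834 without slide 5. Leaving out single arrays gave 261 to 402 after vehicle and 299 to 624 after dexamethasone, where the lowest was without female dexamethasone replicate 1 or 2. The interaction count, 7, ran from 0 to 29. Some of these alternatives used fewer arrays or names, and the cause of the shifts was not tested.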

Other observations

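The arrays also carry probes described as ribosomal protein under other names, mostly predicted copies and transcript identifiers, which the rule did not take. This set was chosen after the data were seen, by the description text alone. It held 365 names, of which 305 passed the filter on dim probes. Their median difference between dexamethasone and vehicle was 0.35 in males, with 279 of 305 above 0, and 0.39 in females, with 262 of 305 above 0. Some of these probes can read the same transcripts as the 72 names, so they are not independent of them. For the Rpl21 near copy (ENSRNOT00000041479) the differences were 0.35 and 0.64, beside 0.41 and 0.64 for Rpl21, and for the Rpl17 near copy (LOC363418) they were 0.12 and 1.22, beside 0.47 and 0.52 for Rpl17.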
